A study of Mus musculus with 8 samples.

Results

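Cystine uptake and glutathione synthesis were followed through 8 genes, all of them rows of the deposited count table chosen by name: Slc7a11 and Slc3a2 for cystine import, Gclc, Gclm and Gss for synthesis of glutathione, Gsr for its recycling, and Cbs and Cth for transsulfuration. They were 8 of the 18768 genes in the table, and all 8 were among the 15153 genes that passed a filter on low counts. The RNA was that of 4 cell lines grown from mouse tumors. MC010 and MC011 were established from tumors of IRF8 knock-out mice (label IRF8 KO) and MC654 and MC659 from tumors of wild-type C57BL/6 mice (label WT). All the tumors had been induced with 100 µg of methylcholanthrene, a chemical carcinogen, taken about 3 months later and carried through at least 10 passages in culture, so each line stood for 1 tumor. The study treated C57BL/6 mice as syngeneic hosts for the lines, and states no strain for the IRF8 KO mice beyond that. Each line gave 2 libraries, and nothing in the labels says that these came from separate cultures. The p-values below therefore count libraries and not tumors. Between lines they measure the spread between the 2 libraries of a line. By label they also take in the spread between the lines of a label, with each library counted as independent. With 2 lines against 2, no exact permutation p can fall under 0.333.

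Cystine, the oxidized pair of cysteine molecules found in plasma and culture medium, enters cells through system xc-, in which the light chain xCT (Slc7a11) does the exchange against glutamate and the heavy chain 4F2hc (Slc3a2) anchors it in the plasma membrane. Cysteine can also be made inside the cell from methionine by transsulfuration, in which Cbs joins homocysteine and serine and Cth splits the product to release cysteine. Cysteine limits the first step of glutathione synthesis, and glutathione is the reductant that Gpx4 uses against the lipid peroxides of ferroptosis, the form of cell death that the study was about.

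Irf8, the gene that the labels name, gave 442 and 347 counts in MC010, 32 and 10 in MC011, 1 and 2 in MC654 and 1 and 0 in MC659. This order is opposite to what the labels say. The study typed the lines by PCR on genomic DNA, and gene totals do not show which exons of Irf8 were read. Each direction below is a direction by label. The libraries held between 74063616 and 116206078 counts. All 8 mesenchymal markers, which go with the sarcoma label, were found in all 4 lines, from Vim at a mean of 4661 to 7053 CPM (read counts in proportion to library size, after TMM scaling) to Pdgfra at 17.7 to 445. Their summed level was lower in the IRF8 KO libraries (9732 to 10508 CPM) than in the WT libraries (14411 to 16150), a gap that came from Fn1. The mean of Fn1 was 1153 CPM in MC010 and 2021 in MC011, against 7956 in MC654 and 7991 in MC659. The list did not move as one. By label 1 of the 8 was called lower, Fn1 (log2 -2.33), and 2 were called higher, Pdgfra (3.82) and S100a4 (2.17). The part of the markers in the results below was not tested. Of the 4 epithelial markers, the keratins were highest in MC010 and lowest in MC011, with Krt8 at a mean of 284 and 1.29 CPM and Krt18 at 264 and 31.4, while Epcam, highest in MC011, and Cdh1, lowest in MC010, stayed under 1 CPM in every line. Of 8 hematopoietic markers 4 were analysed here, and the leukocyte gene Ptprc had a mean of at most 0.167 CPM in any line. In bulk RNA, fewer cells of a kind and less RNA per cell cannot be told apart.

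Promoter sequence was at hand for 5 of the 8 genes, as RefSeq windows on GRCm38.p6 that run from 250 bases before the start of the gene to 50 bases after it. Those of Slc7a11 and Gclm are shown, without the bases after the start, because Slc7a11 was called in opposite directions in the 2 IRF8 KO lines and Gclm was called higher in both IRF8 KO lines. Capitals mark TGATGNAA, the CEBP-ATF element that ATF4 is known to bind, in the window of Slc7a11, and TGACNNNGC, the core of the antioxidant response element that NRF2 is known to bind, in that of Gclm, each read on either strand.
Slc7a11 (chr3:50443614-50443863, minus strand): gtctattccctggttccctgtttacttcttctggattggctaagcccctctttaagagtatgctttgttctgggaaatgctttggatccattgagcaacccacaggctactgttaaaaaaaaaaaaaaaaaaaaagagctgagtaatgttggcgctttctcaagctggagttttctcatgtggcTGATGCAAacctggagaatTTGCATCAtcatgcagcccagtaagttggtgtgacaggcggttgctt
Gclm (chr3:122245307-122245556, plus strand): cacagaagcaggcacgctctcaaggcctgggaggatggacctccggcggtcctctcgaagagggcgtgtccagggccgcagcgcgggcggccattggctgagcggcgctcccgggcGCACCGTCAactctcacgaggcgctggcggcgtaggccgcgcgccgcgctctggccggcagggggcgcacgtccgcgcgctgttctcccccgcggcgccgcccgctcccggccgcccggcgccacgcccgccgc
The CEBP-ATF letters occurred 2 times before Slc7a11, once on each strand, starting 66 and 47 bases before the start. They occurred in 3.97% of 32851 windows of the same length. The window of Gclm held the antioxidant core once, on the opposite strand and 134 bases before the start, and that core was in 12.4% of all windows. The windows of Slc3a2, Gss and Cbs held neither of these, and none of the 5 held the interferon element GAAANNGAA, which was in 8.56% of all windows. These matches describe letters only.

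The test was the quasi-likelihood test of edgeR, with p-values adjusted by Benjamini-Hochberg over 15153 genes, and a gene is termed called where the adjusted p was under 0.05 and the log2 difference above 0.59 in size. Between the labels, 3 of the 8 genes were called, against 22.5% of all genes: Gclm was higher and Gss and Cth were lower in the IRF8 KO libraries. The widest of these was Cth, at 6.63-fold lower, and it lay in the transsulfuration arm. Slc7a11, the cystine carrier, was not called between the labels, and its 2 IRF8 KO lines lay on either side of WT. For 6 genes, all but Slc7a11 and Cbs, the 4 libraries of one label lay wholly above the 4 of the other, which was so for 42.5% of all genes. The plot of levels by library shows all 64 values.

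**Figure D1:**
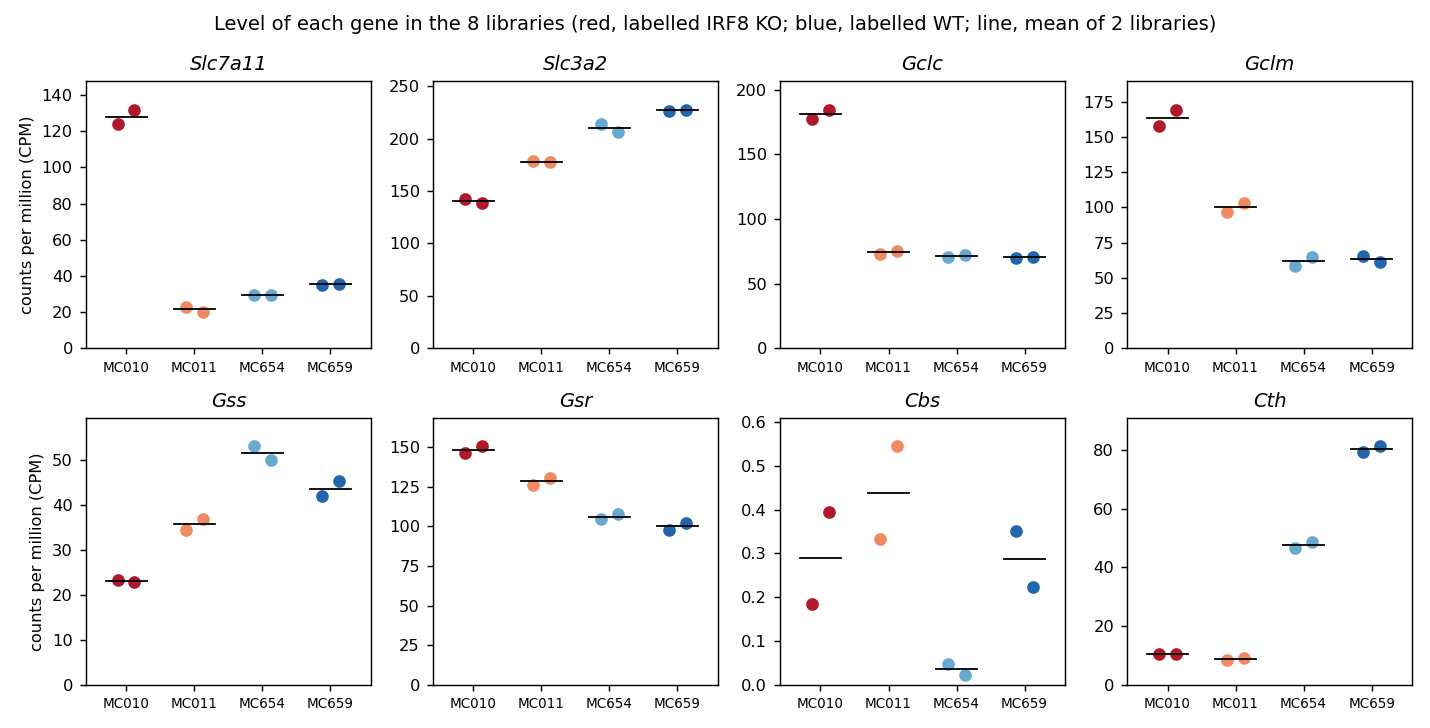
Level in CPM of each of the 8 genes on the vertical axis, 1 panel per gene with an axis from 0, by line on the horizontal axis. Points are the 2 libraries of a line, red shades for lines labelled IRF8 KO and blue for WT, and the black line is their mean. MC010 stands above the other lines for Slc7a11 and Gclc, both IRF8 KO lines lie below both WT lines for Cth, and Cbs stays under 0.6 CPM everywhere.

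Slc7a11 (ENSMUSG00000027737, mm10 chromosome 3, 49892526 to 50443614, minus strand) had 124 and 132 CPM in MC010, 22.6 and 20.2 in MC011, 29.5 and 29.4 in MC654 and 35.2 and 35.6 in MC659. Both libraries of MC010 were high, those of MC011 were the lowest of all, and the labels overlapped. Against the WT lines, Slc7a11 was 3.96-fold higher in MC010 (log2 1.99, SE 0.05, adjusted p = 1.17e-14 from edgeR) and 1.51-fold lower in MC011 (log2 -0.59, SE 0.06, adjusted p = 1.74e-07), so that it was called in opposite directions in the 2 lines of 1 label. The latter difference, at -0.591, only just passed the threshold of 0.59 on the fold. Without the second library of MC011 it was -0.51 and no longer past that threshold. Against single WT lines, MC011 was called lower than MC659 (-0.72) but not than MC654 (-0.46). The label difference was 1.20 on the log2 scale (SE 0.62, adjusted p = 0.165), and with MC010 left out it turned to -0.62 (adjusted p = 0.000426). Over the 4 lines the mean level spanned 5.98-fold, a wider span than in 90.6% of the 11733 genes with enough counts to compare.

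Slc3a2 (ENSMUSG00000010095, mm10 chromosome 19, 8706882 to 8723369, minus strand) had 142 and 138 CPM in MC010, 178 and 178 in MC011, 214 and 207 in MC654 and 226 and 228 in MC659. MC010, the highest line for Slc7a11, was the lowest for its partner, and all 4 IRF8 KO libraries lay below all 4 WT libraries. The label difference of -0.46 (SE 0.10, adjusted p = 0.00792 from edgeR) passed the p threshold but not that on the fold. Of the 6 pairs of lines, the pair MC010 and MC659 alone was called (log2 -0.70, SE 0.04, adjusted p = 1.11e-09).

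Levels of different genes were set beside each other per exon length, as TPM, counts divided by exon length and scaled to the same sum in each library. On that scale the RNA of the light chain stood below that of the heavy chain in every library. Slc7a11 had a mean of 33.2 ± 2.06 TPM (SD, n = 2 libraries) in MC010, 5.98 ± 0.485 in MC011, 8.09 ± 0.104 in MC654 and 9.82 ± 0.00856 in MC659. Slc3a2 had a mean of 143 TPM in MC010, the lowest line, and 249 in MC659, the highest. The ratio of Slc7a11 to Slc3a2 was 0.221 and 0.242 in the libraries of MC010 and between 0.0288 and 0.0396 in the other 6. The exon length of Slc7a11, 13922 bases over 5 annotated transcripts, is long, and its TPM is lower than it would be over a shorter transcript.

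**Figure D2:**
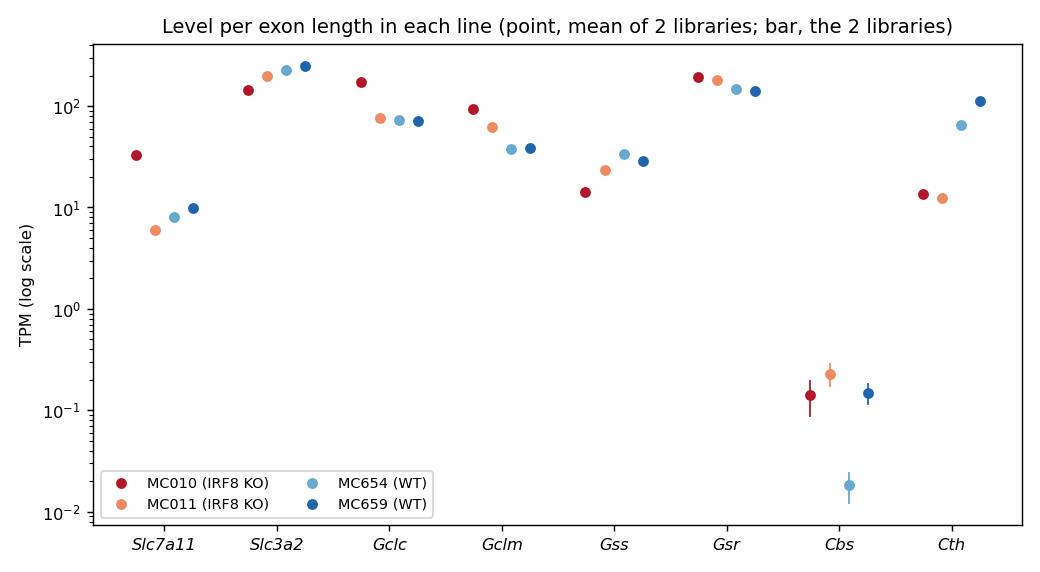
Mean TPM of each gene in each line on a log axis, with genes along the horizontal axis. Points are means of 2 libraries and vertical bars join the 2 libraries, which are hidden behind the point where they lie close together. Slc3a2 and Gsr stand above 100 TPM in every line, Slc7a11 stands below Slc3a2 throughout, and Cbs lies under 0.3 TPM in every line.

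Glutamate-cysteine ligase, which makes the first and rate-limiting step of glutathione synthesis, has a catalytic subunit (Gclc) and a modifier subunit (Gclm) that eases its feedback inhibition. Both were high in MC010, but they parted in MC011. Gclc (ENSMUSG00000032350, mm10 chromosome 9, 77754535 to 77794485, plus strand) had 178 and 185 CPM in MC010, 72.9 and 75.4 in MC011, 70.6 and 72.2 in MC654 and 69.4 and 70.9 in MC659. The libraries of MC010 stood alone, and the other 6 lay between 69.4 and 75.4 CPM. Against the WT lines Gclc was 2.56-fold higher in MC010 (log2 1.36, SE 0.04, adjusted p = 6.09e-14 from edgeR), while MC011 differed from them by 0.07 (95% interval -0.02 to 0.15, adjusted p = 0.167). The label difference was 0.85 (SE 0.32, adjusted p = 0.0700) and so was not called. It passed both thresholds with MC011 left out (1.35, adjusted p = 1.20e-08), with DESeq2 (adjusted p = 0.0240) and without the first (0.0244) or the second (0.0281) library of MC011.

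Gclm (ENSMUSG00000028124, mm10 chromosome 3, 122245557 to 122270732, plus strand) had 158 and 170 CPM in MC010, 96.9 and 103 in MC011, 58.6 and 64.5 in MC654 and 65.5 and 61.3 in MC659. The lines fell into 3 levels, MC010 above MC011 and MC011 above both WT lines, which differed by 0.04 (95% interval of MC654 minus MC659 -0.17 to 0.09). Gclm was called higher in both IRF8 KO lines, by 1.39 in MC010 (SE 0.05, adjusted p = 9.33e-13 from edgeR) and by 0.68 in MC011 (SE 0.05, adjusted p = 1.08e-08). By label it was 2.11-fold higher (log2 1.08, SE 0.19, adjusted p = 0.00293), and this call was lost with MC654 (adjusted p = 0.0548) or MC659 (0.0528) left out and with the libraries of each line added together (0.151).

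The balance of the subunits in RNA thus differed in 1 line. The ratio of Gclc to Gclm, per exon length, was 1.22 and 1.26 in the libraries of MC011 and between 1.77 and 2.01 in the other 6, so that MC011 had the least Gclc per Gclm. This ratio is a description and no test was made of it.

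Glutathione synthetase (Gss), which adds glycine in the second step, went the other way. Gss (ENSMUSG00000027610, mm10 chromosome 2, 155563181 to 155592810, minus strand) had 23.4 and 22.9 CPM in MC010, 34.5 and 36.8 in MC011, 53.0 and 50.1 in MC654 and 41.9 and 45.3 in MC659. MC010 was lowest for Gss where it was highest for both ligase subunits, and the labels did not overlap. The label difference was -0.69 (SE 0.18, adjusted p = 0.0161 from edgeR), 1.62-fold lower. MC010 alone was called below the WT lines (log2 -1.03, SE 0.06, adjusted p = 1.94e-10), and MC011 lay at -0.41 (SE 0.05, adjusted p = 8.05e-06), short of the threshold on the fold. The label call was lost with MC010 (-0.43), MC654 (adjusted p = 0.152) or MC659 (0.0696) left out and with line sums (0.246). Gss overlaps Acss2 on the opposite strand, and the strand setting of the counting was not given in the sources used here. Acss2 had 1267 and 845 counts in MC010, or 47.3% and 50.3% of those of Gss, and between 12.5% and 18.8% in the other 6 libraries.

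Glutathione reductase (Gsr), which returns oxidized glutathione to its reduced form with NADPH, differed least. Gsr (ENSMUSG00000031584, mm10 chromosome 8, 33652523 to 33698163, plus strand) had 146 and 151 CPM in MC010, 126 and 131 in MC011, 105 and 108 in MC654 and 97.8 and 102 in MC659. All IRF8 KO libraries lay above all WT libraries, with no gap as wide as in Gclm. The label difference of 0.43 (SE 0.07, adjusted p = 0.00233 from edgeR) stayed under the threshold on the fold, and Gsr was called in none of the 6 pairs of lines, though 5 of them had an adjusted p under 0.05. DESeq2 with the same thresholds did not call it by label either.

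In transsulfuration, cystathionine gamma-lyase (Cth), which releases cysteine from cystathionine, was far lower in both IRF8 KO lines. Cth (ENSMUSG00000028179, mm10 chromosome 3, 157894248 to 157925077, minus strand) had 10.3 and 10.5 CPM in MC010, 8.55 and 9.23 in MC011, 46.6 and 48.8 in MC654 and 79.4 and 81.2 in MC659. The highest IRF8 KO library was thus well under the lowest WT library. The WT lines also differed from each other. The counts behind these values ran from 729 to 7304. By label Cth was 6.63-fold lower (log2 -2.73, SE 0.22, adjusted p = 7.46e-05 from edgeR), and it was called lower in all 4 pairs of an IRF8 KO line with a WT line, by log2 -2.20 in the nearest pair and -3.18 in the farthest. MC654 was 1.68-fold below MC659 (log2 -0.75, SE 0.06, adjusted p = 3.87e-07), while MC010 and MC011 differed by 0.23 (SE 0.07, adjusted p = 0.00883), under the threshold on the fold.

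The Cth call held with each library and each line left out and with DESeq2. With the libraries of each line added together, which leaves 2 lines against 2, its difference was -2.73 with an unadjusted p of 0.00105 and an adjusted p of 0.0799, at which none of 16927 genes was called by edgeR and 3658 had an unadjusted p under 0.05. Cth was 1 of 4 of the 8 genes with an unadjusted p under 0.05 there, beside Slc3a2, Gclm and Gsr. The summed level of the hematopoietic markers moved with Cth, at 5.72 to 7.38 CPM in the IRF8 KO libraries and 9.67 to 11.4 in the WT libraries, most of it Cd68, and its part in the result was not tested. Csf1r was called lower by label (log2 -1.93, adjusted p = 0.00200 from edgeR), with 0.319 CPM in MC010, 0.378 in MC011, 1.14 in MC654 and 1.53 in MC659. Ptprc had 0.167, 0, 0.0179 and 0.0224 CPM and Cd79a 0.132, 0.183, 0.0534 and 0.0451 in the same order of lines.

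Cystathionine beta-synthase (Cbs), which feeds Cth, was close to the limit of detection. Cbs (ENSMUSG00000024039, mm10 chromosome 17, 31612623 to 31637199, minus strand) had 21 and 29 counts in MC010, 32 and 43 in MC011, 4 and 2 in MC654 and 31 and 20 in MC659, where the floor of a library is 3 counts, or between 0.0262 and 0.0408 CPM. The libraries of MC654 were at about that floor, and the other 3 lines overlapped. Cbs was called lower in MC654 than in MC659 (log2 -2.96, 95% interval -4.48 to -1.43, adjusted p = 0.0111 from edgeR), a call that ended without the second library of MC654 (adjusted p = 0.0760) or the first of MC659 (0.0944). The label difference was 1.15 (SE 0.74, adjusted p = 0.261). Its 95% interval ran from -0.56 to 2.86. With MC659 left out, the label difference was 3.28 and was called (adjusted p = 0.0300), and against the mean of the WT lines Cbs was called higher in MC010 (1.45, adjusted p = 0.0223) and in MC011 (2.08, adjusted p = 0.00176), on counts of 43 or fewer. Against MC659 alone neither line was called, at -0.03 in MC010 (adjusted p = 0.960 from edgeR) and 0.60 in MC011 (0.323). Both were called against MC654, the line at about the floor. Intervals and floors cover counting error and the spread between libraries only. By label, libraries of different lines are part of that spread.

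**Figure D3:**
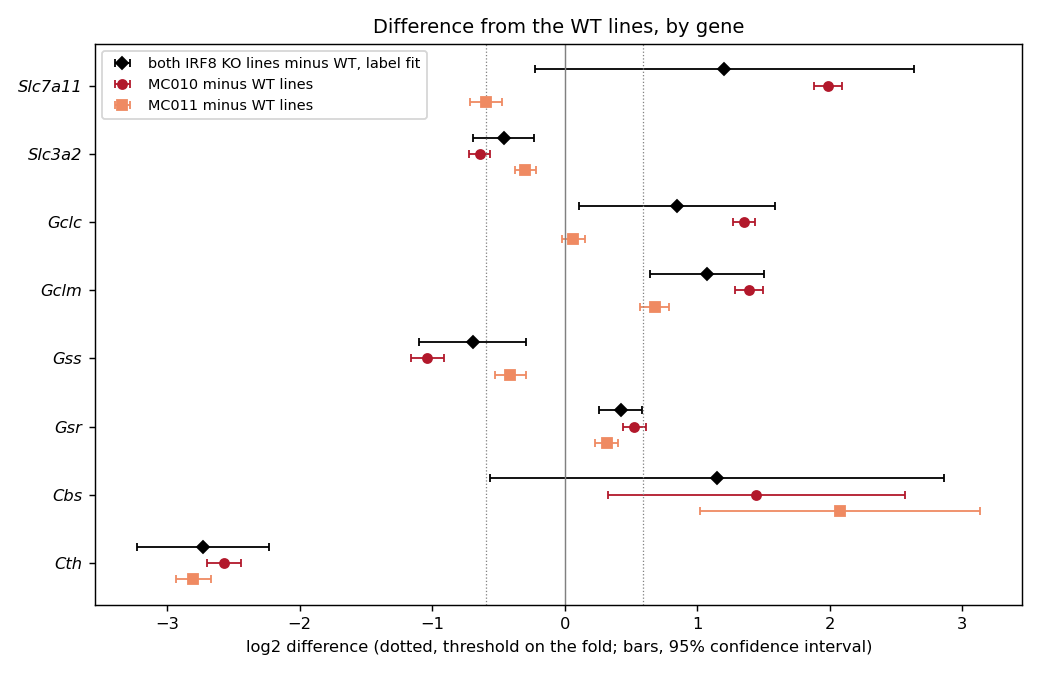
Difference of each gene from the WT lines on a log2 scale along the horizontal axis, with 95% confidence intervals as bars. Diamonds give both IRF8 KO lines together in the fit by label, circles MC010 and squares MC011 in the fit with 1 group per line, which share the WT libraries, and dotted lines mark the threshold on the fold. For Cth all 3 values lie between -2.80 and -2.57, while for Slc7a11 MC010 lies at 1.99 and MC011 at -0.59.

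Set beside each other, Slc7a11 of import and Cth of transsulfuration gave the lines different profiles. MC010 had high Slc7a11 and low Cth, MC011 had little of both, and the WT lines had low Slc7a11 and high Cth. The ratio planned for import and transsulfuration set the mean log2 level of Slc7a11 and Slc3a2 against that of Cbs and Cth. In CPM it was 80.0 in MC010, 31.7 in MC011, 62.2 in MC654 and 18.9 in MC659, so the labels overlapped. Cbs, close to the limit of detection, enters that ratio. Per exon length, the ratio of Slc7a11 to Cth was 2.40 and 2.53 in MC010, 0.530 and 0.438 in MC011, 0.127 and 0.121 in MC654 and 0.0889 and 0.0878 in MC659. On this scale Slc7a11 exceeded Cth in the libraries of MC010 and was below it in the other 6. In MC011 the direction depended on the exon length, since in CPM the ratio there was 2.65 and 2.19, and it stayed under 1 in the WT lines. Within lines the rank of the genes per exon length shifted as well. Cth had rank 3 of the 8 genes in MC659 at 111 TPM and rank 7 in MC010 at 13.5 TPM, where Slc7a11 had rank 5. The scatter of Slc7a11 and Cth shows the 4 lines as separate pairs of points.

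**Figure D4:**
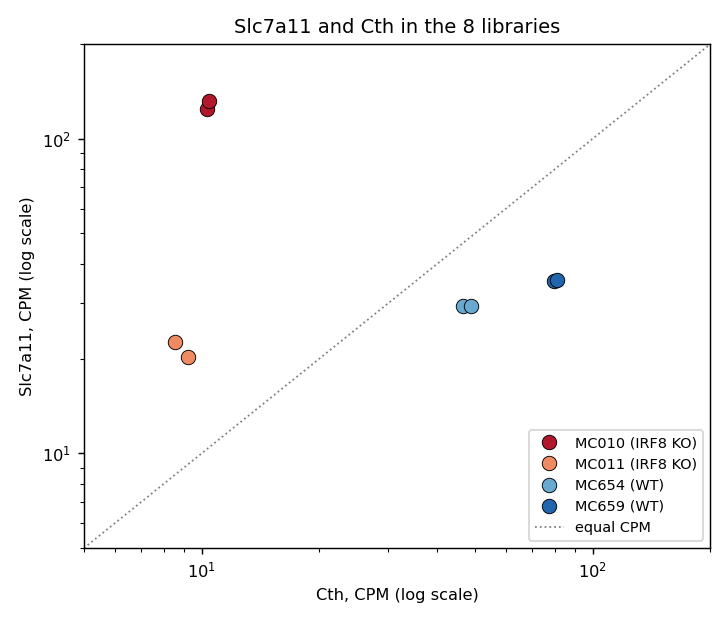
Slc7a11 against Cth in CPM, both on log axes, 1 point per library and 1 color per line, with a dotted line of equal CPM. The 2 libraries of MC010 lie at the top left (124 and 132 CPM of Slc7a11, 10.3 and 10.5 of Cth), those of MC011 at the lower left and the 4 WT libraries at the right.

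The same thresholds were applied to each pair of lines. Between MC010 and MC011, 4 of 8 were called (31.6% of all genes): Slc7a11, Gclc and Gclm were higher and Gss was lower in MC010. Between MC654 and MC659, 2 were called (4.95% of all genes), Cbs and Cth. MC010 differed in 6 genes from MC654 (35.9% of all genes) and in 6 from MC659 (36.8%), and MC011 in 3 from MC654 (29.7%) and in 3 from MC659 (30.3%). Against the mean of the WT lines, 7 genes were called in MC010 (37.1% of all genes), all but Gsr, and 4 in MC011 (30.7%), Slc7a11, Gclm, Cbs and Cth. Whether the counts themselves differ between comparisons was not tested. The median log2 difference of the 8 genes was 0.94 in MC010 and -0.12 in MC011, beside 0.002 and 0.004 over all genes. Cth was called in 5 of the 6 pairs of lines, Gclm in 5, Slc7a11 in 4, Gclc, Gss and Cbs in 3 each, and Slc3a2 in 1.

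Genes with a pattern over the 8 libraries like that of Slc7a11 or of Cth were sought by the Euclidean distance between centered log2 levels, over 10677 genes. The 5 nearest to Slc7a11 were Fetub, Whrn, Mpp2, Slc16a10 and Mettl7a1, at distances of 0.414 to 0.533 where the median gene lay at 2.87. Fetub, for example, had a mean of 17.2 CPM in MC010, 3.33 in MC011, 4.77 in MC654 and 4.79 in MC659. The 5 nearest to Cth were Irgm2, Cmpk2, Lgals3bp, Ogn and Slfn8, at 0.443 to 0.638 where the median gene lay at 3.92. Irgm2 had 3.78, 2.54, 13.4 and 25.3 CPM in the same order of lines. Of the other genes of the pathway, Gclc was the 133rd nearest to Slc7a11 and Slc3a2 the 8480th, and Gss was the 874th nearest to Cth. The 8 libraries fall into 4 lines, so these distances describe 4 points more than 8.

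Other genes of cystine and cysteine metabolism were counted in 6 lists. Between the labels 13.7% of all genes were called higher and 8.72% lower, and between MC010 and MC011 15.7% and 16%. Among carriers of cystine, cysteine and partners of Slc3a2, 6 of 10 were tested, and 1 was higher and 2 were lower by label. Slc3a1, the partner of the renal cystine carrier, was higher by 1.28 (adjusted p = 0.0448 from edgeR) at a mean of at most 1.80 CPM. Slc7a5 (LAT1), the large neutral amino acid carrier that pairs with Slc3a2, was lower (-0.99, adjusted p = 0.0152), with a mean of 129 CPM in MC010, 252 in MC011, 372 in MC654 and 382 in MC659. Slc1a5, a glutamine carrier, was lower too (-0.93, adjusted p = 0.00397). Slc7a5 and Slc3a2 thus had the same order of lines. Between MC010 and MC011, 2 were higher and 2 lower, with Slc3a1 at 1.53, Slc7a7 at 1.03 and Slc7a5 at -0.97.

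Of the genes of glutathione breakdown and transport, 10 of 12 were tested, and 1 was higher and 2 were lower by label. Ggt7, of the gamma-glutamyltransferase family, was lower by label (-3.96, adjusted p = 0.000146 from edgeR), with 2.72 CPM in MC010, 1.11 in MC011, 27.5 in MC654 and 32.1 in MC659. Oplah, which opens the 5-oxoproline ring to glutamate, was higher (2.66, adjusted p = 0.000421), and Dpep1, a dipeptidase that splits cysteinylglycine, was lower (-2.49, adjusted p = 0.0192). Oplah had 9.43 CPM in MC011, the lower of the IRF8 KO lines, and 1.09 and 2.13 in the WT lines. MC010 and MC011 differed in 7 of the 10, with Anpep at -3.92, Dpep1 at -2.43 and Ggt7 at 1.30.

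The methionine cycle, which supplies the homocysteine for Cbs, was not called by label in any of its 9 tested genes by edgeR, nor by DESeq2, while 4 had an unadjusted p under 0.05. Its largest value was 1.07 for Gnmt, a methyltransferase with at most 0.145 CPM in any line (adjusted p = 0.302). Between MC010 and MC011, Ahcy, which releases homocysteine, was higher in MC010 (1.11, adjusted p = 1.95e-11) and Mtrr, which reactivates methionine synthase, was lower (-0.91, adjusted p = 1.67e-09).

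Downstream of cysteine, in its oxidation and in the oxidation of sulfide, 3 of 7 genes were higher by label and none was lower by edgeR or DESeq2. Sqor, the mitochondrial enzyme that oxidizes hydrogen sulfide, was higher by 1.80 (adjusted p = 1.67e-05 from edgeR), with 25.2 CPM in MC010, 21.2 in MC011, 6.27 in MC654 and 7.07 in MC659. Tst (0.80, adjusted p = 0.0342) and Ethe1 (0.78, adjusted p = 0.00611), which act on the products of Sqor, were higher as well. The median of the 7 was 0.78, beside 0.02 over all genes. Between MC010 and MC011 the 3 called were others, Suox at 1.21, Mpst at 0.64 and Csad at 0.60, all higher in MC010.

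In the thioredoxin system and the supply of NADPH, which Gsr draws on, 4 of 12 genes were higher and 1 was lower by label. Glrx, a glutaredoxin, was higher by 1.28 (adjusted p = 2.86e-05 from edgeR), Pgd, of the oxidative pentose phosphate pathway, by 0.85 (adjusted p = 0.00614) and Txnrd1, thioredoxin reductase of the cytosol, by 0.78 (adjusted p = 0.0334). Txnrd1 had 978 CPM in MC010 and 518, 468 and 405 in MC011, MC654 and MC659, and was thus highest in the line with most Slc7a11. Between MC010 and MC011, 2 were higher and 3 lower, with Glrx5 at -1.16, Txnrd1 at 0.92 and Txnrd3 at -0.70.

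Of 10 regulators known for these genes, 2 were higher and 1 was lower by label. Trp53, a repressor of Slc7a11 in other cells, was higher by 3.06 (adjusted p = 0.000164 from edgeR). It had 344 CPM in MC010, 165 in MC011, 31.3 in MC654 and 29.8 in MC659. MC010 had most of both Trp53 and Slc7a11, while MC011 had more Trp53 than the WT lines and the least Slc7a11. A link between these genes was not tested. Bach1, a repressor at antioxidant response elements, was higher by 0.71 (adjusted p = 7.33e-05), and Ddit3, a factor of the stress response downstream of Atf4, was lower (-1.16, adjusted p = 0.0159). Nfe2l2, which encodes NRF2, lay at 0.54 (adjusted p = 9.83e-05) and Atf4 at -0.49 (adjusted p = 0.00668), both short of the threshold on the fold, and these 2 are named after their values were seen. Between MC010 and MC011 Trp53 was higher (1.06) and Ddit3 (-0.95) and Atf3 (-0.75) were lower in MC010, where Nfe2l2 differed by 0.06 (adjusted p = 0.281).

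**Figure D5:**
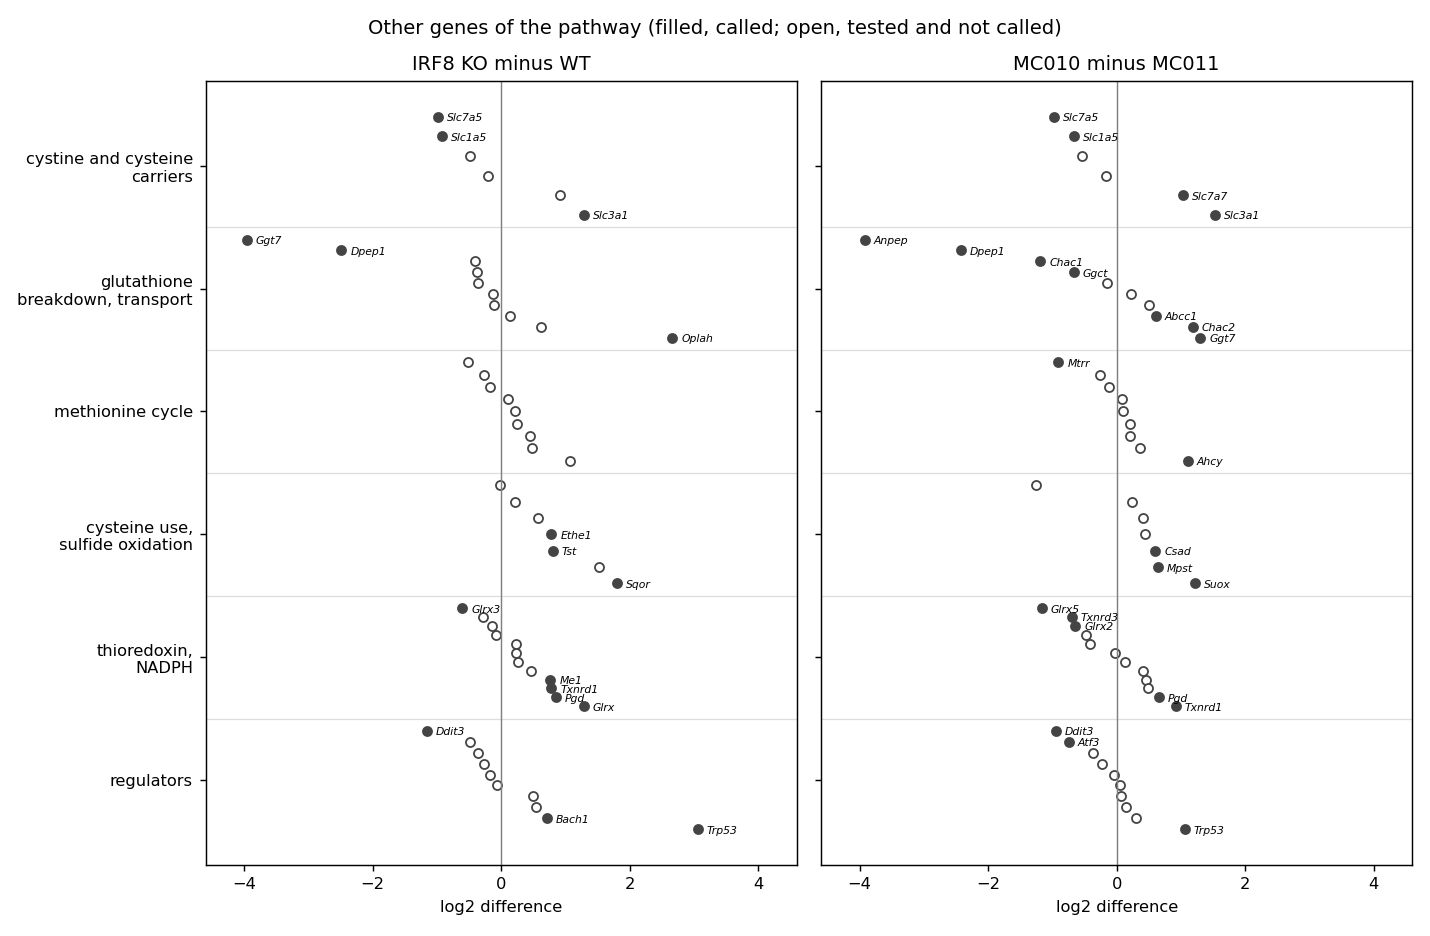
Log2 differences along the horizontal axis of the tested genes of 6 lists, by label on the left and of MC010 minus MC011 on the right, with 1 row of the vertical axis per list. Filled points are called and named, open points are not called. By label Ggt7 at -3.96 and Trp53 at 3.06 lie farthest out, the methionine cycle has no filled point, and the filled points of cysteine use and sulfide oxidation all lie above 0.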

How the data were processed

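RNA of the 4 lines was sequenced from stranded mRNA libraries. Per the submitters' processing notes, the authors aligned reads to mm10 (GRCm38.p6) with STAR 2.7.3a and counted them per gene with HTSeq 0.11.2, and the strand setting is not given in the sources used here. The deposited table holds a raw count per gene and library, which was used. It also holds the authors' scaled counts and their mean (a signal, each count divided by 1 size factor per library) and the authors' comparison by genotype, with a log2 fold change, its error, a Wald score and p-values, none of which was used. Every gene in it had at least 20 counts over the 8 libraries. Genes of the sex chromosomes were not analysed here.

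The counts were analyzed in R 4.3.3 (edgeR 4.0.16). Genes passed filterByExpr by genotype label (15153 genes) and were scaled by TMM. The robust quasi-likelihood fit compared the 4 libraries of each label. In a second fit each line was a group, which yielded the differences between lines and of each IRF8 KO line from the WT lines. Standard errors were derived from the log2 difference and the F statistic. TPM used exon lengths of GENCODE M21, in which 99.9% of the gene identifiers were found, and positions are those of the deposited table. Ratios of members and the median over lists carry no test. The fits were tested on simulated data with 200 genes changed by known amounts. The simulated lines did not differ in any other gene, so the spread between lines of a label was not covered.

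The members and the lists were chosen with earlier results of these data known. By rule, the text names the 8 genes and Irf8, the 3 genes of each list with the largest difference among those called by label and between MC010 and MC011, and the 5 genes nearest in pattern to Slc7a11 and to Cth. The ratio of Slc7a11 to Cth was added after the data had been seen. The libraries of a line were not duplicates, since their counts differed beyond sampling noise in 39.6% to 45.5% of genes. Alternatives were DESeq2 1.42.0, no filter, upper-quartile scaling, no threshold on the fold, the library number as a block, each library and each line left out, line sums, and limma 3.58.1 (voom) with lines as random blocks (correlation 0.828). Depth was 74063616 to 116206078 counts per library. Promoter sequences were from RefSeq.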

Additional observations from a re-analysis of the deposited data

Results flagged for a closer look

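For 4 of the 8 genes (31.6% of all genes), MC010 and MC011, of the same label, were called as unlike in their difference from the WT lines. The test was of MC010 minus MC011 itself (edgeR, 1 group per line). At an adjusted p under 0.05 alone it was 7 of the 8 (9550 of all 15153 genes), with Slc3a2, Gsr and Cth short of the threshold on the fold. On the log2 scale, MC010 minus MC011 was 2.58 for Slc7a11, 1.29 for Gclc, 0.71 for Gclm and -0.62 for Gss. Slc7a11 lay on opposite sides of WT in the 2 lines, and Gclm and Gss each on the same side. Gclc was higher in MC010 and was not told apart from WT in MC011 (0.07, adjusted p = 0.167 from edgeR). The call for Gss ended without the second library of MC010 (-0.59) or the second of MC011 (-0.58). In the 16 groups of 4 libraries of 1 label, no library stood far from the other 3 by Dixon's criterion. Each group joined the 2 libraries of each of 2 lines. Where those lines differ, a single library can hardly stand out, so this says little about single libraries.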

How the results depend on the processing

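DESeq2, no filter, upper-quartile scaling and limma-voom with lines as random blocks kept the number of the 8 genes called by label at 3 or 4. It was 0 with line sums (edgeR, 4 with an unadjusted p under 0.05), where none of all 16927 genes was called. It was 1 with MC654 left out (2079 of all 16429 genes called) and 6 with MC011 left out (5827 of 16072). With no threshold on the fold it was 5 (5675 of 15153). Without that threshold, 7 of the 8 genes were called for MC010 minus MC011 (9550 of 15153) and 4 for MC654 minus MC659 (2198). For MC011, also without it, 7 were called against MC654 (9229), 6 against MC659 (9299) and 7 against the WT lines (9901). Leaving out single libraries, the number was 3 to 4 by label and 1 to 2 for MC654 minus MC659. The differences that changed sign were that of Slc7a11 by label with MC010 left out (-0.62), and, over libraries left out, those of Gclm between the WT lines (-0.11 to 0.03) and of Cbs for MC010 minus MC659 (-0.63 to 0.46), neither of which was called. Without replicate 1 of MC654 or of MC659, the Gclm difference was 0.027 and 0.0071, and without replicate 1 of MC010 or of MC659 the Cbs difference was 0.46 and 0.33. The call of Cbs in MC010 against the WT lines ended without the second library of MC010 (adjusted p = 0.271 from edgeR), of MC654 (0.0741) or of MC659 (0.0563). Slc3a2 in MC010 against MC654, at -0.587, passed the threshold on the fold with DESeq2 (-0.593) and upper-quartile scaling (-0.602). With single libraries left out it ran from -0.617 to -0.563, on both sides of that threshold. By label Slc3a2 passed the same threshold with MC011 left out (-0.65). Gsr in MC010 against MC659 passed it without the first library of MC010 (0.591) or the second of MC659 (0.594). The cause of these changes was not tested.

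By their labels, libraries of different lines share a number only. The correlation of same-numbered libraries' deviations from their line means ran from -0.24 to 0.36. It was 0.24 to 0.36 among MC010, MC011 and MC654, and -0.24 to -0.15 between MC659 and each of these. A block for the number assumes the same shift in every line, so it does not cover this pattern, whose source was not tested. With a replicate block for that number, 3 of the 8 genes were called by label, with 3106 called over all genes, and the block changed no call of the 8 genes. For Cbs, with counts of 43 or fewer, the label difference was called with MC659 left out (3.28).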
